A study of Mus musculus with 8 samples.

Results

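A set of 10 structural genes of the photoreceptor outer segment was followed in retinas of *Mettl3* conditional knockout (*Mettl3*-CKO) mice and in control retinas: the disc rim tetraspanins *Prph2* and *Rom1*, the disc-base proteins *Prom1* and *Cdhr1*, the axonemal proteins *Rp1* and *Rp1l1*, the photoreceptor proteins *Fscn2* and *Tulp1*, and the matrix proteoglycans *Impg1* and *Impg2*. They were taken by gene name from the gene-level read counts, in which all 10 were found among 54532 genes, and all 10 were among the 17998 genes that passed the filter on low counts. RNA was sequenced from whole retinas of 4 *Mettl3*-CKO samples and 4 control samples. The *Mettl3*-CKO mice carried Six3-Cre and 2 floxed *Mettl3* alleles, and the controls were their littermates, whose own alleles are not given in the sources used here. The labels give the age of both groups as postnatal day 7, and the study's methods give it a day earlier. Six3-Cre acts in retinal progenitor cells, and the study describes efficient loss of METTL3 protein for the central retina, while the RNA came from the whole retina. Nothing states how many retinas made up a sample or which pups and litters they came from, so the p-values below measure the spread between these samples.

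The outer segment is a modified cilium filled with stacked membrane discs that carry the visual pigment. New discs form at its base as flat evaginations of the ciliary membrane, their rims are bent and sealed by tetraspanin complexes, and the stack is aligned along the microtubules of the axoneme. Around the outer segments lies a matrix rich in proteoglycans. In the mouse the outer segments grow out after birth, and mutations in most of these genes cause retinal degeneration in people.

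Total counts were 16227095 to 20281517 per sample. The levels below are CPM, counts scaled to a common library total after adjustment by trimmed mean of M-values (TMM) factors, and changes are log2 fold changes of *Mettl3*-CKO over control with their standard errors (SE) from edgeR's quasi-likelihood test, called at an adjusted p under 0.05 over all tested genes (Benjamini-Hochberg). *Mettl3* itself, counted over the whole gene, was at 24.1 ± 3.97 CPM in *Mettl3*-CKO and 31.2 ± 2.24 CPM in control retinas (SD, n = 4 each), with a log2 fold change of -0.38 and an edgeR adjusted p of 0.0602, and its samples overlapped. Control replicate 1 stood apart for the genes described here. It was the highest control sample for 9 of the 10 genes, at 1.02 to 1.94 times the mean of the other controls, and the 4 control samples are therefore also given without it.

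Of the 10 genes, 3 fell in *Mettl3*-CKO retinas (*Rom1*, *Tulp1* and *Impg1*), 0 rose and 7 did not pass the threshold. At an unadjusted p under 0.05 edgeR gave 6 lower and 0 higher, beside 11.1% lower and 13.5% higher over all tested genes, and DESeq2 and limma voom also called 0 higher. At the adjusted threshold 4.05% of all tested genes were called lower and 10.5% were called in either direction. The median log2 fold change of the 10 genes was -0.48, beside -0.01 for all tested genes. The 10 genes were chosen with earlier results of these data known, so these counts are no test of the set. The CPM values of the groups did not overlap for 3 genes, *Prom1*, *Tulp1* and *Impg2*, which were lower in every *Mettl3*-CKO sample than in every control sample. Among all tested genes 7.58% were separated in that direction and 17.4% in either direction. In whole retina RNA, fewer photoreceptors and less RNA per photoreceptor cannot be told apart.

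**Figure D1:**
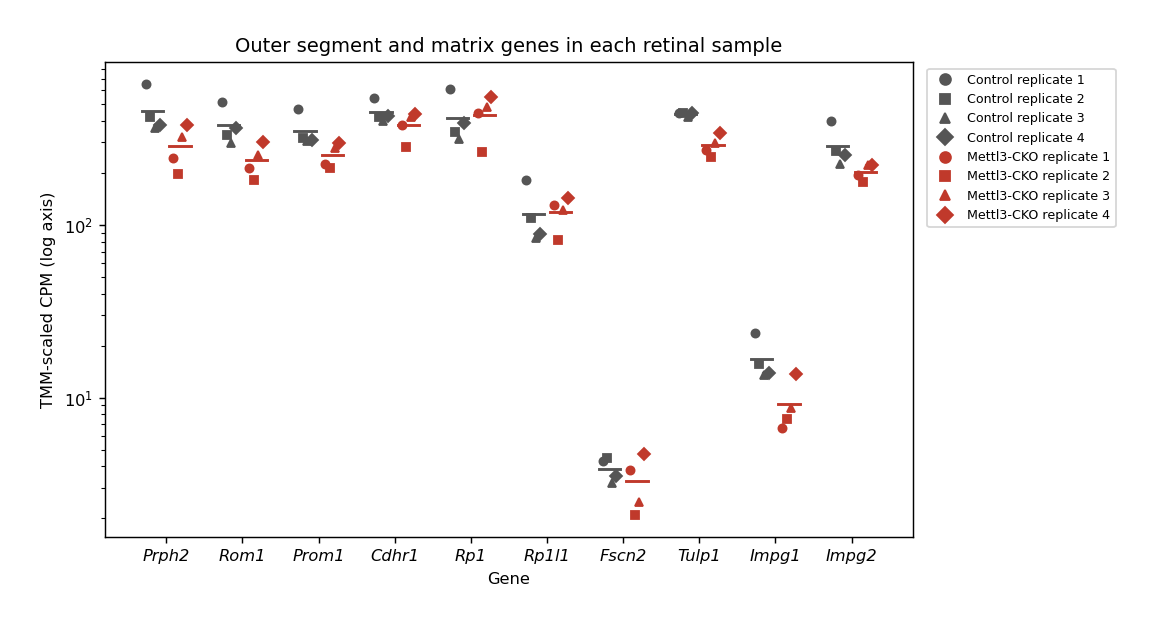
CPM (log axis) of each of the 10 genes in the 4 control and 4 *Mettl3*-CKO samples; points are samples and the bar is the group mean. The *Tulp1* control samples sit between 423 and 443 CPM, above all *Mettl3*-CKO samples, whereas the *Rp1* and *Rp1l1* groups overlap.

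Peripherin-2 (*Prph2*) and ROM1 are related tetraspanins that assemble into the complexes of the disc rim. *Prph2* (ENSMUSG00000023978, GRCm38 chr17:46910459-46924933, plus strand) was at 654, 422, 365.3 and 377.4 CPM in control replicates 1 to 4 and at 243, 196, 321 and 377.5 CPM in *Mettl3*-CKO replicates 1 to 4. In all, 3 of the *Mettl3*-CKO samples were below all controls, and the other was level with control replicate 4. The log2 fold change was -0.68 (SE 0.21), with an edgeR adjusted p of 0.0594, which did not pass the threshold. *Rom1* (ENSMUSG00000071648, chr19:8927382-8929356, minus strand) was at 514, 333, 296 and 364 CPM in the controls and at 214, 182, 252 and 302 CPM in the *Mettl3*-CKO samples. Here too 3 *Mettl3*-CKO samples were below all controls and the groups overlapped only through *Mettl3*-CKO replicate 4 and control replicate 3. *Rom1* fell by 0.67 on the log2 scale (SE 0.18, edgeR adjusted p = 0.0307). That call was lost when any of 5 samples was left out, with edgeR adjusted p-values of 0.124, 0.0855 and 0.0661 without *Mettl3*-CKO replicates 1, 2 and 3, and of 0.0518 and 0.0577 without control replicates 2 and 4. *Prph2* passed in 1 of the 8 fits that left out a sample, without *Mettl3*-CKO replicate 4 (-0.84, edgeR adjusted p = 0.0350), and was at -0.45 (edgeR adjusted p = 0.0616) without control replicate 1.

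Both rim genes varied together from sample to sample. The log2 ratio of *Prph2* to *Rom1* CPM lay between 0.05 and 0.35 in all 8 samples, and its mean differed between the groups by -0.02. The *Rom1* and *Prph2* start regions are printed because these are the disc rim partners. Their log2 fold changes were alike (-0.67 and -0.68), though only *Rom1* was called. The start regions of *Fscn2* and *Prom1* are printed because they held the same motif as *Rom1*. Each is the 120 bases before the RefSeq transcription start (GRCm38.p6), written 5′ to 3′ on the gene's strand, and capitals mark TAAGCC, a variant of the site bound by photoreceptor homeodomain factors.
Rom1, chr19:8929357-8929476, minus strand: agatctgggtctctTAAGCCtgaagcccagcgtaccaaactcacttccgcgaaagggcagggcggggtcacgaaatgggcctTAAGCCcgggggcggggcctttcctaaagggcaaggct
Prph2, chr17:46910358-46910477, plus strand: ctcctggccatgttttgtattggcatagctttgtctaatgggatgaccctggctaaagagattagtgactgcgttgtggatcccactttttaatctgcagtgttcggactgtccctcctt
Fscn2, chr11:120361414-120361533, plus strand: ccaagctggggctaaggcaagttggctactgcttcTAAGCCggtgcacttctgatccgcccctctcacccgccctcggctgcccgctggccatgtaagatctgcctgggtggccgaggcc
Prom1 (its downstream start), chr5:44094769-44094888, minus strand: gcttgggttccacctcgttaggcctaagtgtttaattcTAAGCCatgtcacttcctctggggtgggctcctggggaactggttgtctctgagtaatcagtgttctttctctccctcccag

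The RefSeq table held 8 of the 10 genes, with 9 start sites, and *Rp1* and *Rp1l1* did not match. In the 250 bases before each start, TAAGCC or its reverse complement GGCTTA was found at 3 of the 9 starts, beside 8.2% of 32851 windows of the same length over all genes. *Rom1* had it at 106 and 38 bases before the start, *Fscn2* at 85 bases and the downstream start of *Prom1* at 82 bases. TAATCC, the more usual form of the homeodomain site, or its reverse complement GGATTA, was at 0 of the 9 starts and in 6.25% of all windows. TGCTGA, the half-site of Maf factors such as NRL, or its reverse complement TCAGCA, was also at 0 of the 9 and in 16.1% of all windows. These are counts of letters in the windows searched, on both strands.

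Prominin-1 (*Prom1*) and the photoreceptor cadherin CDHR1 sit at the base of the outer segment, where new discs form. *Prom1* (ENSMUSG00000029086, chr5:43993620-44102032, minus strand) was at 467, 319.7, 306 and 310.0 CPM in the controls and at 224, 213, 279 and 297 CPM in the *Mettl3*-CKO samples. Every *Mettl3*-CKO sample was below every control, by a margin of 297 against 306 CPM at the closest. The log2 fold change was -0.47 (SE 0.15), with an edgeR adjusted p of 0.0624. A two-sided exact permutation test of the 8 log2 CPM values gave p = 0.0286, the smallest it can give for 4 against 4. Any gene with fully separated groups gets this value, as did *Tulp1*, so it only restates the separation. Groups were separated in either direction for 17.4% of all tested genes. The same permutation test gave p = 0.0571 for *Rom1* and *Impg1* and p = 0.0857 for *Prph2*. *Prom1* shares exon bases with *Gm16401*, a gene on the opposite strand with 107 to 191 counts per sample, and whether strand was used in counting is not given in the sources used here. *Cdhr1* (ENSMUSG00000021803, chr14:37077857-37098347, minus strand) was at 543, 421, 399 and 427 CPM in the controls and at 377, 283, 421 and 436 CPM in the *Mettl3*-CKO samples. These groups overlapped, and the log2 fold change of -0.24 (SE 0.14) had an edgeR adjusted p of 0.311.

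RP1 and its relative RP1L1 bind the microtubules of the axoneme and are needed for the orderly stacking of discs. *Rp1* (ENSMUSG00000025900, chr1:3999557-4409241, minus strand) was at 616, 347, 316 and 389 CPM in the controls and at 446.5, 266, 481 and 548 CPM in the *Mettl3*-CKO samples. *Rp1l1* (ENSMUSG00000046049, chr14:63992506-64035025, plus strand) was at 182, 109, 84.1 and 89.1 CPM in the controls and at 130, 82.0, 121 and 144 CPM in the *Mettl3*-CKO samples. For both genes control replicate 1 was the highest of all 8 samples and *Mettl3*-CKO replicate 2 the lowest, and the groups overlapped. The log2 fold changes were 0.06 (SE 0.22, edgeR adjusted p = 0.905) for *Rp1* and 0.04 (SE 0.23, edgeR adjusted p = 0.943) for *Rp1l1*. Without control replicate 1 they were 0.31 (edgeR adjusted p = 0.219) and 0.34 (edgeR adjusted p = 0.120), which did not pass either. In that comparison 10.3% of all tested genes were called higher and 7.07% were called lower. The log2 ratio of *Rp1* to *Rp1l1* stayed between 1.67 and 2.12 in all 8 samples, with a difference between group means of -0.02.

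TULP1 is a photoreceptor protein of the tubby family that takes part in moving proteins into the outer segment, and FSCN2 is the actin-bundling fascin of photoreceptors. *Tulp1* (ENSMUSG00000037446, chr17:28351515-28365222, minus strand) was at 443, 441.5, 423 and 441.4 CPM in the controls and at 270, 248, 298 and 341 CPM in the *Mettl3*-CKO samples. The controls lay close together, at 437 ± 9.30 CPM (SD, n = 4), and all *Mettl3*-CKO samples were below them, at 289 ± 40.3 CPM (SD, n = 4). *Tulp1* fell by 0.60 on the log2 scale (SE 0.099, edgeR adjusted p = 0.00308), and it was called lower in all 8 fits that left out a sample. Control replicate 1 was at 1.02 times the mean of the other controls, the smallest such ratio of the 10 genes. *Fscn2* (ENSMUSG00000025380, chr11:120361534-120368168, plus strand) was low in every sample, at 3.20 to 4.47 CPM in controls and 2.09 to 4.69 CPM in *Mettl3*-CKO retinas. Its log2 fold change of -0.23 (SE 0.25) had an edgeR adjusted p of 0.630.

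IMPG1 and IMPG2 are the hyaluronan-binding proteoglycans of the matrix around photoreceptors. *Impg1* (ENSMUSG00000032343, chr9:80313330-80465481, minus strand) was at 23.6, 15.7, 13.6 and 13.9 CPM in the controls and at 6.69, 7.54, 8.66 and 13.6 CPM in the *Mettl3*-CKO samples. Here 3 *Mettl3*-CKO samples were below all controls, and *Mettl3*-CKO replicate 4 reached the level of control replicate 3. *Impg1* fell by 0.87 on the log2 scale (SE 0.23, edgeR adjusted p = 0.0316), the most negative value of the 10 genes. The call was lost without *Mettl3*-CKO replicates 1, 2 and 3 (edgeR adjusted p of 0.125, 0.0906 and 0.0863) and without control replicate 2 (0.0654). *Impg2* (ENSMUSG00000035270, chr16:56204313-56273756, plus strand) was at 398, 267, 225 and 255 CPM in the controls and at 195, 176, 221 and 223 CPM in the *Mettl3*-CKO samples. The groups did not overlap, with 223 against 225 CPM at the closest. The log2 fold change was -0.49 (SE 0.15, edgeR adjusted p = 0.0595). A two-sided exact permutation test of the log2 CPM values gave p = 0.0286, again the smallest possible, which the separation fixes. *Impg2* passed the threshold without control replicate 1 (-0.29, edgeR adjusted p = 0.0389) and without control replicate 3 (-0.58, edgeR adjusted p = 0.0354).

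**Figure D2:**
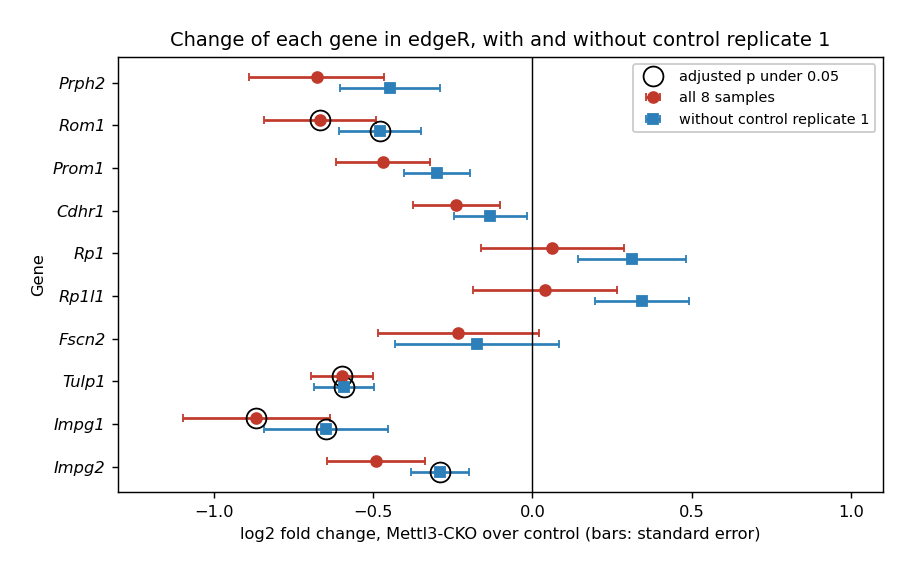
Log2 fold change of each gene, *Mettl3*-CKO over control, with its standard error as bars, from all 8 samples (circles) and without control replicate 1 (squares); rings mark an adjusted p under 0.05. *Rom1*, *Tulp1* and *Impg1* were called lower in both fits, and the *Rp1* and *Rp1l1* values lay at 0.06 and 0.04 with all samples and at 0.31 and 0.34 without that replicate.

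Without control replicate 1, *Rom1* (-0.48, edgeR adjusted p = 0.0202), *Tulp1* (-0.59, edgeR adjusted p = 0.000778), *Impg1* (-0.65, edgeR adjusted p = 0.0310) and *Impg2* were called lower. *Prph2* (-0.45, edgeR adjusted p = 0.0616), *Prom1* (-0.30, edgeR adjusted p = 0.0561), *Cdhr1* (-0.13, edgeR adjusted p = 0.467) and *Fscn2* (-0.17, edgeR adjusted p = 0.687) did not pass. The log2 fold changes of these 8 genes were closer to 0 than with all samples, whereas those of *Rp1* and *Rp1l1* were farther from it. The groups of *Tulp1*, *Prom1* and *Impg2*, separated with all 8 samples, cannot come to overlap when a control is left out. Among all tested genes 12.6% were separated in that direction when 4 samples were set against 3.

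Levels of different genes were compared as FPKM, the counts divided by gene length and by the sample's total. For *Tulp1* the deposited gene length was 6664 bases, while its coding transcript searched for GGACT below has 2091 bases. For *Rom1* these lengths were 1526 and 1517 bases. The order given here therefore depends on the gene lengths used. In control retinas *Rom1* was the most abundant of the 10, at 245 ± 57.4 FPKM, followed by *Prph2* at 150.1 ± 41.5 FPKM and *Cdhr1* at 102.5 ± 12.95 FPKM (SD, n = 4). *Tulp1* at 65.3 ± 1.67, *Prom1* at 48.4 ± 9.70, *Rp1* at 33.5 ± 10.2 and *Impg2* at 30.6 ± 7.55 FPKM came next. *Rp1l1* was at 15.2 ± 5.61, *Impg1* at 4.56 ± 1.19 and *Fscn2* at 1.82 ± 0.28 FPKM. Neighbours whose control samples overlapped were *Rom1* with *Prph2*, *Prom1* with *Rp1*, and *Rp1* with *Impg2*. *Prph2* and *Cdhr1* met at 121 FPKM, and the other neighbours were apart. In *Mettl3*-CKO retinas the order was the same except that *Rp1* (35.4 FPKM) and *Prom1* (35.3 FPKM), which overlap there too, changed places.

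The 10 genes were also set against 12 genes of rod phototransduction and rod identity. This rod list was likewise chosen with earlier results of these data known. Of those 12, 6 fell, 0 rose (0 also at an unadjusted p under 0.05 in edgeR) and 6 did not pass, beside 4.05% of all tested genes called lower. The median log2 fold change was -0.66, and the rod genes ranged from -1.085 to 0.373. Their summed level, as CPM without the TMM factors, was 2652 to 3909 in the controls and 1386 to 2577 in the *Mettl3*-CKO samples. Control replicate 1 was highest and *Mettl3*-CKO replicate 2 lowest. The mean log2 CPM of the rod genes was lower in *Mettl3*-CKO by 0.53, at 5.75 ± 0.38 against 6.29 ± 0.37 (SD, n = 4). Relative to that mean in the same sample, *Prom1*, *Impg2* and *Tulp1* differed between the groups by 0.07, 0.07 and -0.07 on the log2 scale and overlapped. *Cdhr1* differed by 0.29, *Fscn2* by 0.25, *Impg1* by -0.35 and *Prph2* by -0.15, also with overlap.

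For *Rp1* and *Rp1l1* the groups did not overlap on that scale. *Rp1* was 2.26 to 2.46 log2 units above the rod mean in the controls and 2.74 to 3.21 in the *Mettl3*-CKO samples, a difference of 0.60. *Rp1l1* was at 0.24 to 0.70 in the controls and 0.96 to 1.42 in the *Mettl3*-CKO samples, a difference of 0.62. Against a rod mean that was itself lower in *Mettl3*-CKO, 13.3% of all tested genes were separated in that direction, beside 2 of these 10. *Rom1* was at 2.195 to 2.281 in the controls and 2.034 to 2.189 in the *Mettl3*-CKO samples, a difference of -0.13, so that the groups only just did not overlap. Groups that did not overlap with *Mettl3*-CKO lower were found for 0.294% of all tested genes, a direction that the lower rod mean itself makes rare. Against the summed rod CPM in place of the mean, the differences were 0.85 for *Rp1*, 0.87 for *Rp1l1*, 0.13 for *Rom1*, 0.11 for *Prph2* and 0.18 for *Tulp1*, so these last genes changed sign with the choice of reference. On that reference *Prom1* and *Impg2* differed by 0.33 each, *Cdhr1* by 0.54, *Fscn2* by 0.50 and *Impg1* by -0.092. Relative to the rod mean with each sample left out, *Tulp1* ranged from -0.24 to 0.032 and *Impg2* from -0.0063 to 0.18, which takes in both signs. No test was made of these differences.

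**Figure D3:**
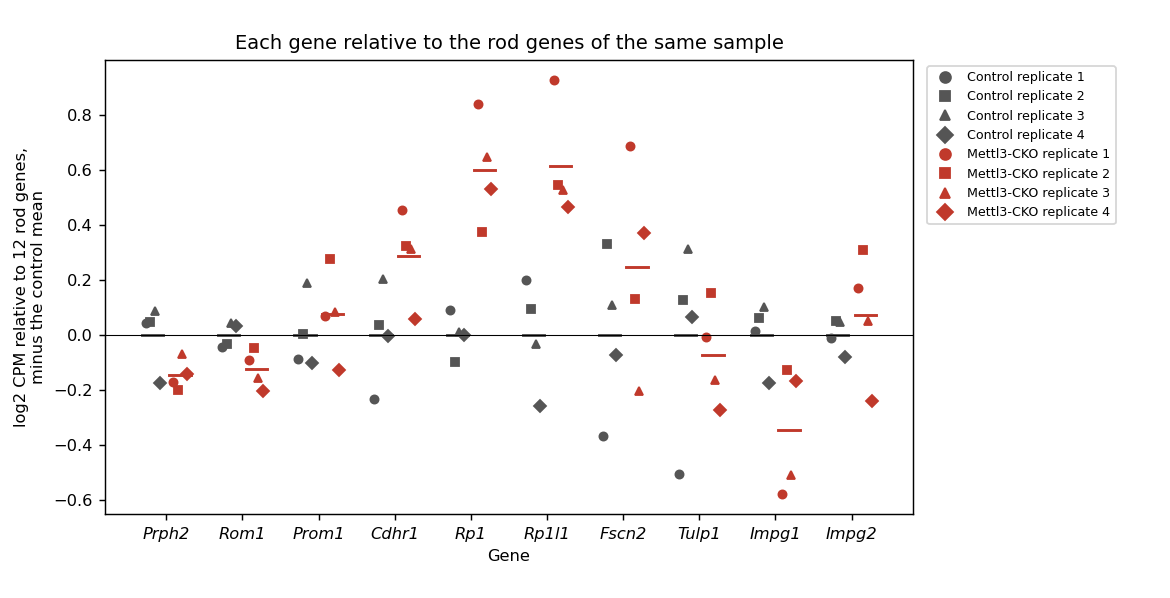
Level of each gene relative to the mean of the 12 rod genes in the same sample, in log2 units with the control mean set to 0 and bars for the group means, for 4 control and 4 *Mettl3*-CKO samples. The *Rp1* and *Rp1l1* samples of the *Mettl3*-CKO group lie above all controls, by 0.60 and 0.62 on average, and *Rom1* lies below by 0.13.

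Relative to *Rp1*, chosen as reference after the values were seen, *Prph2* was at -0.04 to 0.28 log2 units in the controls and at -0.88 to -0.44 in the *Mettl3*-CKO samples. *Prph2*, *Rom1* and *Impg1* were lower relative to *Rp1* without overlap, with differences of -0.74, -0.72 and -0.94. These are 3 of the other 9 genes, and 1.27% of the other tested genes were separated in that direction. Because *Rp1* itself did not fall and was chosen after the values were seen, this count is no test, and no conclusion is drawn from it. The ratio of *Prom1* to *Cdhr1* differed by -0.21 and that of *Impg1* to *Impg2* by -0.42 on the log2 scale, with groups that overlapped in both ratios.

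Across the 8 samples the 10 genes varied together. The median Pearson correlation over the 45 pairs of genes was 0.72, from 0.10 for *Rp1l1* with *Tulp1* to 0.99 for *Prph2* with *Prom1*, and 20 pairs were above 0.8 (n = 8 samples, with all genes read from the same libraries). For deviations from the group means the median was 0.88, from 0.45 to 0.98. These correlations were not computed among other genes, so they are not shown to be particular to the set. *Mettl3*-CKO replicate 4 was the highest of its group for all 10 genes and control replicate 3 the lowest of its group for all 10. *Mettl3*-CKO replicate 2 was the lowest of its group for 9, with *Impg1* lowest in replicate 1.

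**Figure D4:**
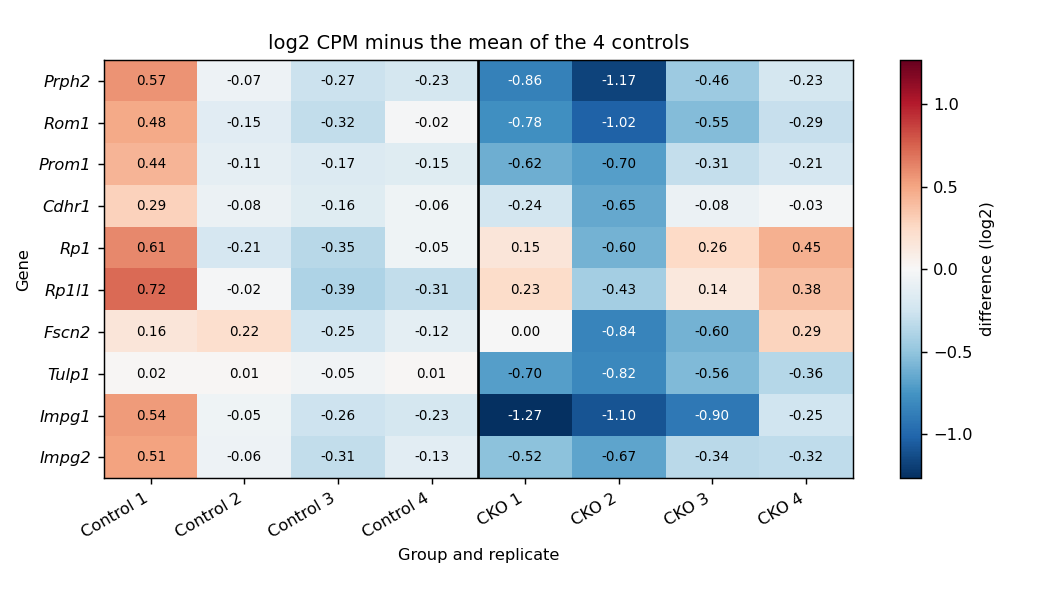
Log2 CPM of each gene in each sample minus its mean over the controls. Control replicate 1 is above 0 for all 10 genes, and *Mettl3*-CKO replicate 2 is below 0 for all 10.

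The 5 genes outside the set that followed its mean level most closely over the 8 samples were *Pdc*, the photoreceptor phosducin (r = 0.987), *Tmem266* (r = 0.986), *Ccdc126* (r = 0.985), *Plch2* (r = 0.984) and *Ano2*, a calcium-activated chloride channel of photoreceptor terminals (r = 0.983). None of the 5 passed the threshold, and *Ano2* came closest with a log2 fold change of -0.64 (edgeR adjusted p = 0.0566).

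Other genes of the outer segment, its cilium and its matrix were also read. This list was chosen with earlier results of these data known, so its counts are no test. Of 24 such genes 9 fell, 1 rose and 14 did not pass, beside 729 lower and 1168 higher among all 17998 tested genes. Their median log2 fold change was -0.29. *Rbp3*, the retinoid carrier of the interphotoreceptor matrix, was at 1625 ± 166 CPM in controls and 926 ± 155 CPM in *Mettl3*-CKO retinas (SD, n = 4) and fell by 0.81 (edgeR adjusted p = 0.00189). *Pcare*, a ciliary actin regulator needed for disc formation, fell by 1.20 (edgeR adjusted p = 0.00305). The genes *Unc119*, a chaperone of transducin (-0.70), *Cngb1*, a subunit of the rod cyclic nucleotide-gated channel (-0.73), *Rpgrip1*, which anchors RPGR at the connecting cilium (-0.51), and *Mak*, a ciliary kinase (-0.49), also fell. So did *Fam161a*, a microtubule-binding ciliary protein (-0.46), and *Egflam*, the synaptic matrix protein pikachurin (-0.41). *Adgrv1*, a large adhesion receptor, rose by 0.76 (edgeR adjusted p = 0.00246).

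The Mettl3 enzyme methylates adenosine within a short consensus, of which GGACU is a frequent form, so the letters GGACT were counted in 1 coding transcript of each gene (GENCODE vM21, GRCm38). The median over 14285 tested coding genes was 1.06 per kilobase, with quartiles at 0.644 and 1.54. *Prph2* had 13 in 2665 bases, or 4.88 per kilobase, the 99.8th percentile, and *Rom1* had 2, or 1.32 per kilobase. *Tulp1*, the gene with the lowest adjusted p, had 1 (0.478 per kilobase), and *Rp1* had 3 (0.437 per kilobase), both below the lower quartile. *Impg2*, with 4 (0.581 per kilobase), was also below it, and *Fscn2*, with 3 (1.75 per kilobase), was above the upper quartile, as was *Prph2*. Between the quartiles lay *Impg1* with 2 (0.675 per kilobase), *Cdhr1* with 5 (1.15), *Rp1l1* with 10 (1.5) and *Prom1* with 6 (1.51), besides *Rom1*. The match nearest the stop codon is shown for *Prph2*, which had the most, and for the 3 genes that fell, as 21 bases of transcript written as DNA with GGACT in capitals. The coordinates are those of the capitals.
Prph2, chr17:46923583-46923587, plus strand, exon 3 of 3, 36 bases after the stop: cacttagtGGACTccagggac
Rom1, chr19:8927441-8927445, minus strand, exon 3 of 3, 224 bases after the stop: caaccaaaGGACTagagaatg
Impg1, chr9:80314385-80314389, minus strand, exon 17 of 17, coding, 18 bases before the end of the stop: gaagaccaGGACTgggaggga
Tulp1, chr17:28364941-28364945, minus strand, exon 2 of 15, coding, 1572 bases before the end of the stop: catgaagaGGACTgcttgagc
Whether any of these positions carried methylation was not analysed here.

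Markers of other cell types were read beside these results, from lists chosen with earlier results of these data known. Summed levels take every listed gene, tested or not, and are CPM of the library total without the TMM factors. Among all 17998 tested genes 729 were called lower and 1168 higher. At an unadjusted p under 0.05 in edgeR 11.1% were lower and 13.5% higher. Of 10 cell cycle genes of progenitors 4 rose and 0 fell in edgeR (8 and 0 at an unadjusted p under 0.05), with summed levels of 1501 to 1951 CPM in controls and 2086 to 2767 CPM in *Mettl3*-CKO retinas, lowest in control replicate 1 and, within its group, in *Mettl3*-CKO replicate 4. Of 9 cone genes tested 1 fell and 0 rose (2 and 1 at an unadjusted p under 0.05 in edgeR), at 613 to 719 against 534 to 748 CPM. Of 9 pigment epithelium genes 4 fell, at 97.1 to 130 against 64.7 to 87.8 CPM. Müller glia genes (7 tested, 1 lower and 1 higher) summed to 1845 to 2161 against 1933 to 2035 CPM. Of 7 vessel and blood genes 6 fell, with log2 fold changes of -2.65 to -0.99. Their sum, at 525 to 660 against 533 to 637 CPM, was mostly *Kdr*, the gene that did not pass, at 549 CPM in controls and 558 CPM in *Mettl3*-CKO retinas. Lens genes (4 of 8 tested, 2 lower) summed to 1643 CPM in control replicate 4, 38.8 in control replicate 1 and 5.23 to 12.1 CPM in the other samples. No gene of these lists was at 0 in every sample. The part of these cell types in the differences above was not tested.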

How the data were processed

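Retinal RNA was extracted with TRIzol and made into libraries with the NEBNext Ultra kit, 1 library per sample. Per the study's methods and the submitters' processing notes, HISAT2 was used by the authors to map filtered reads to the mouse genome (mm10, GRCm38), featureCounts to count reads per gene and DESeq2 to test genes. The deposited values used here are raw counts per gene, with 0 columns of per-sample values left out. The annotation release and the strand setting are not given in the sources used here, and 53585 genes had the same coordinates in GENCODE vM21. *Rom1* was not among them, and its transcript and GGACT position come from GENCODE vM21. In R 4.3.3, edgeR 4.0.16 was run on all 8 samples with filterByExpr, TMM and the quasi-likelihood test, and p-values were adjusted over the 17998 genes tested. The steps were tested on simulated data. The biological coefficient of variation was 15.0%, and no samples of a group agreed within sampling noise, with a chi-square per gene of at least 5.01. The alternatives were DESeq2 1.42.0, limma 3.58.1 voom with sample weights, other scalings, no filter on low counts, a threshold of 0.01, the replicate number as a block, each sample left out, and other rod references. FPKM was computed from the counts, the deposited gene lengths and the totals. Log2 CPM values used a prior count of 2. Reads carried no stated molecular identifiers, so they are not independent molecules. The members and the lists of other genes were chosen with earlier results of these data known. Named genes are the 10 members, the called genes of the other outer segment list (of which 1, kept in the counts, is not reported here), and the 5 genes (mean log2 CPM of at least 1) most correlated with the members' mean.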

Additional observations from a re-analysis of the deposited data

Results flagged for a closer look

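On the log2 CPM scale, 2 of the 20 sets of 4 samples (10 genes in each group) held a sample whose gap to its nearest neighbour took up more of the range than Dixon's limit of 0.829 allows, and chance gives about 1 in 20, or 1 here. For *Prom1*, control replicate 1 was at 8.87 while the other controls were at 8.26 to 8.32, a gap of 0.90 of the range. For *Tulp1*, control replicate 3 was at 8.73 while the other controls were at 8.79, a gap of 0.92 of a range that was itself narrow.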

How the results depend on the processing

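The number of the 10 genes called lower, 3 with edgeR, was 5 with DESeq2, 5 with voom, 6 with no filter on low counts and 1 at a threshold of 0.01, and it ranged from 1 to 4 when each sample was left out. No gene of the 10 was called higher in any of the 15 alternatives. *Tulp1* was called lower in all 8 leave-one-out fits and in all 7 others. DESeq2 called *Prom1* and *Impg2* as well, and voom called *Prph2* and *Prom1*. Over all genes, 729 were called lower and 1168 higher, beside 1019 and 1476 with DESeq2, 1568 and 2142 with voom, 819 and 1330 with no filter, 147 and 439 at 0.01, and 185 to 1289 and 509 to 1882 with each sample left out. Leave-one-out log2 fold changes ran from -0.067 to 0.31 for *Rp1* and from -0.078 to 0.34 for *Rp1l1*, with neither called. Adjusted p-values over all alternatives of edgeR, DESeq2 and voom ran from 0.000551 to 0.202 for *Prph2*, 0.000178 to 0.124 for *Rom1*, 0.000400 to 0.125 for *Impg1*, 0.00424 to 0.178 for *Impg2* and 1.07e-06 to 0.0202 for *Tulp1*. The cause of these shifts was not tested.

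Same-numbered samples correlated at -0.11, 0.22, -0.11 and 0.25 in their deviations from the group means. The best-matching control was the same-numbered one for *Mettl3*-CKO replicates 2 and 4 but not for replicates 1 and 3. Whether the numbers mark pairs is not stated, and so few correlations cannot decide it. With the replicate block, 2 of the 10 genes were called lower (*Rom1* and *Tulp1*), *Impg1* was at -0.88 (edgeR adjusted p = 0.0523), and 660 genes were called lower and 1198 higher over all.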
